A study of Mus musculus with 18 samples.

Results

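A set of 34 mouse genes of autophagy and the lysosome was followed through dexamethasone (Dex, a synthetic glucocorticoid) treatment of C2C12 myotubes, which are multinucleated muscle-like cells that the mouse myoblast line C2C12 forms when it differentiates. The set was drawn up by gene name and comprised 19 genes that build the autophagosome or carry its cargo, 14 genes of the lysosome and the transcription factor gene Tfeb. All 34 had a probe on the Illumina mouse whole-genome bead arrays, and they formed part of the 19057 genes measured, each read through its brightest probe. RNA came from cultures given 1 uM Dex for 6 h (4 arrays) or 24 h (5 arrays) and from cultures given the vehicle, ethanol (EtOH), at 0.01% of the medium for 6 h (4 arrays) or 24 h (5 arrays). All groups were kept in 2% horse serum and share the one cell line, with no allele, transgene or further agent named. Since nothing in the labels tells whether the arrays of a group stand for separate cultures, the p-values describe no more than the spread between the arrays, and that spread may be technical.

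Autophagy encloses cytoplasm or organelles in a double membrane, the autophagosome, which fuses with the lysosome, where acid hydrolases digest the contents. The Ulk kinases start the process, the Vps34 lipid kinase complex marks the membrane, and a pair of ubiquitin-like conjugation systems couples LC3 and GABARAP proteins (the ATG8 family) to it, where cargo receptors bind. In skeletal muscle, autophagy and the ubiquitin-proteasome system are known as the main routes of protein breakdown during atrophy, which glucocorticoids promote. Transcription factors of the TFEB and FoxO families are known to activate genes of autophagy and the lysosome.

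Values are array intensities as deposited by the authors, and fold changes are differences of log2 intensity, Dex minus EtOH. Glucocorticoid exposure showed in Fkbp5, Tsc22d3 and Per1, 3 genes known to be induced by glucocorticoids, which rose by 3.93, 1.69 and 1.27 at 6 h and by 3.40, 1.43 and 1.35 at 24 h on the log2 scale (limma, highest adjusted p of the 6 tests 4.14e-10). The median intensity per array was 99.8 to 100.4 at 6 h and 85.2 to 86.8 at 24 h, so levels were compared within a time only. Muscle markers were well represented, with the summed intensity of 7 measured myotube genes at 140919 to 148845 in Dex and 142864 to 148517 in EtOH at 6 h, and at 98528 to 106525 in Dex and 101346 to 112800 in EtOH at 24 h. At 24 h Ckm and Actn2 passed as higher with Dex (0.30 and 0.45) and Myog as lower (-0.32). Of 3 myoblast markers measured, Myf5 passed as higher at 6 h (0.33), with a summed level of 376.3 to 432.1 in Dex and 372 to 412.9 in EtOH. Of 5 osteoblast-like markers, Bglap passed as lower at 6 h (-0.26), with a sum of 492.6 to 531.5 in Dex and 499.1 to 558.8 in EtOH. No gene passed among 5 adipocyte-like and 6 macrophage-like markers, whose 24 h sums were 394.4 to 416.1 in Dex and 385.9 to 425.3 in EtOH, and 592.3 to 642.9 in Dex and 586.8 to 619 in EtOH. The intensities have no zero and detection calls were not used here, so no marker could be called absent, and the part of these markers in the results was not tested.

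The residuals of the arrays did not fill all the directions open to them. Over the 786 brightest genes (mean log2 above 12), 1 of the 6 possible residual directions at 6 h and 3 of the 8 at 24 h held at most 0.000293% of the spread each. At 24 h the Dex and EtOH arrays of the same number deviated in opposite directions from their group means, with correlations across all genes of -0.928 to -0.190. Counts that change when these directions are fitted as covariates are given beside the results.

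At 6 h, 2 of the 34 genes passed the test (limma moderated test over all 18 arrays, Benjamini-Hochberg adjusted p under 0.05), against 9.06% of all genes tested. Npc1, which exports cholesterol from the lysosome, was higher, as were 4.67% of all genes, and Ctsz, which encodes the cysteine carboxypeptidase cathepsin Z, was lower, as were 4.39%. By 24 h the number was 10, or 29.4% of the set, against 16.5% of all genes. Psap, Npc1, Gabarapl1, Map1lc3a and Pik3c3 were higher, against 8.39% of all genes. Ctsz, Atg3, Mcoln1, Bnip3l and Atg5 were lower, against 8.1% of all genes. The sizes were modest, from -0.47 (Ctsz) to 0.38 (Psap) on the log2 scale at 24 h, and the median of the set was -0.03 at 6 h and -0.01 at 24 h, beside 0.00 over all genes at both times.

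Most of the set is bright on the array, and bright genes pass more often. Of the 33 members brighter than the median gene, 6.06% passed at 6 h and 30.3% at 24 h, against 15.4% and 25.5% of all genes above that median. The 24 h share of the set thus lay close to the share of all genes above the median, and the 6 h share lay below it. Members and genes were not matched for brightness beyond that. Dex and EtOH arrays did not overlap for 3 of the 34 members at 6 h and 8 at 24 h, against 10.9% and 16.3% of all genes. Among the 33 brighter members the counts were 3 and 7, against 1498 and 2280 of the 9528 genes above the median. For all 32 members that did not pass at 6 h and all 24 at 24 h, the 95% interval of the change stayed within 1.5-fold in either direction. These intervals come from the main fit and may be too narrow for the reason given above. With the residual directions as covariates the 6 h count was 2, against 4.46% of all genes, and the 24 h count was 5 (Gabarapl1, Psap and Npc1 higher, Ctsz and Mcoln1 lower), against 8.89%. For this fit no share of the genes above the median was taken. Without EtOH replicate 2 of 6 h the 6 h count was 4, with Atg3 (-0.34) and Mcoln1 (-0.21) added, both lower. Over the fits without 1 array of 6 h, 1238 to 1827 of all genes passed.

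**Figure D1:**
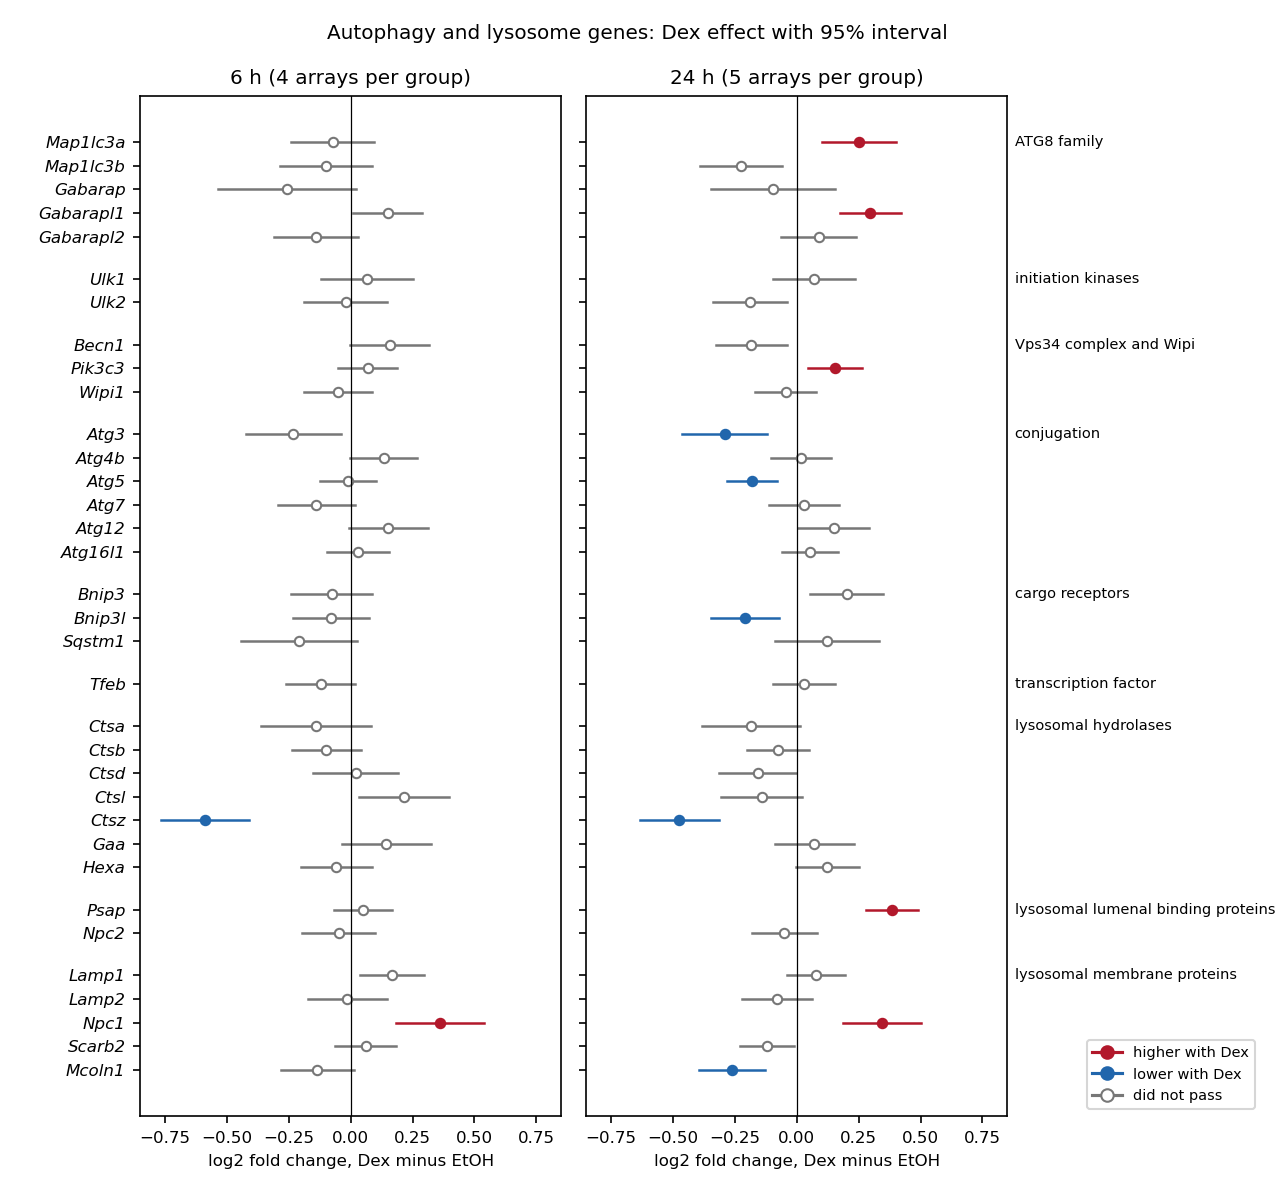
Log2 fold change (Dex minus EtOH, x axis) of each of the 34 genes with its 95% interval from the limma fit, at 6 h on the left and at 24 h on the right, grouped by role. Filled points passed at an adjusted p under 0.05: 1 higher and 1 lower at 6 h, 5 higher and 5 lower at 24 h.

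Ctsz was the 1 lysosomal hydrolase of the set that passed, and it fell at both times. At 6 h its intensities were 594.1, 570.3, 628.6 and 709.3 in Dex, against 927.3, 987.6, 996.7 and 847.4 in EtOH. At 24 h they were 428.8, 329.1, 428.6, 424.1 and 386.3 in Dex, against 531.6, 623.6, 532, 558.5 and 519.9 in EtOH. Every Dex array lay below every EtOH array of its time. The level with Dex was 0.665 times that with EtOH at 6 h (log2 fold change -0.59 ± 0.09 SE, adjusted p = 4.11e-05) and 0.720 times at 24 h (-0.47 ± 0.08 SE, adjusted p = 0.000103). A second Ctsz probe also passed at both times, at -0.71 and -0.32. In extracts of whole cultures, fewer cells of a type and less RNA per cell cannot be told apart, here and for the other genes.

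The other 6 hydrolases of the set did not pass at either time. Ctsl, the cysteine protease cathepsin L, read 668.3, 710.2, 669.4 and 790.9 in Dex and 587.9, 607.1, 660 and 587.2 in EtOH at 6 h. At 24 h the Ctsl intensities were 286.3, 397.3, 320.1, 306.6 and 363.4 in Dex and 416.2, 340.7, 345.7, 356.7 and 380.2 in EtOH. The Dex arrays were all above the EtOH arrays at 6 h, but the difference of 0.22 did not pass (adjusted p = 0.136), and at 24 h the groups overlapped (-0.14, adjusted p = 0.235). The change between the times, -0.36, did not pass (adjusted p = 0.0780) and passed without Dex replicate 2 of 24 h (-0.42, adjusted p = 0.0282). Ctsb, Ctsd, Ctsa, Gaa (the acid alpha-glucosidase that degrades glycogen) and Hexa (a subunit of beta-hexosaminidase) ranged over -0.14 to 0.14 at 6 h and -0.19 to 0.12 at 24 h.

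Psap encodes prosaposin, the precursor of saposins, which help lysosomal enzymes degrade sphingolipids, and it rose at 24 h. Its intensities at 24 h were 12911, 12056, 12782, 11914 and 13096 in Dex, against 9542, 9749, 9353, 9229.7 and 10186 in EtOH. At 6 h they were 13138, 12119, 12519.8 and 13286 in Dex and 11412, 12629.9, 12814 and 12505 in EtOH. The groups were apart at 24 h and overlapped at 6 h. Psap was 1.31-fold higher with Dex at 24 h (log2 0.38 ± 0.05 SE, adjusted p = 7.54e-06), while the 6 h difference of 0.05 did not pass (adjusted p = 0.675). The Dex effect differed between the times by 0.34 ± 0.08 SE (adjusted p = 0.0119), which made Psap the 1 member of the 34 with a passing difference, against 4.94% of all genes (2.46% with a higher effect at 24 h). The second Psap probe gave 0.00 at 6 h and 0.47 at 24 h, and its difference between the times, 0.47, passed too. With the covariates no member passed for the difference, against 1.22% of all genes (Psap at an adjusted p of up to 0.101). The count of members with a passing difference was 4 without EtOH replicate 2 of 6 h. It was 2 without Dex replicate 4 of 6 h, EtOH replicate 4 of 24 h or Dex replicate 2 of 24 h. Over the fits without 1 array, 633 to 1033 of all genes had a passing difference. Npc2, the cholesterol-binding protein of the lysosomal lumen, was at -0.05 at both times and did not pass.

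Of the 5 membrane proteins, Npc1 was higher at both times and Mcoln1 was lower at 24 h. Npc1 read 4614, 4169, 3904 and 3174 in Dex and 3278, 3164, 2699.5 and 3136 in EtOH at 6 h. At 24 h it read 3588, 3182, 3306, 3270.2 and 3676 in Dex and 2588, 2789, 2765, 2622 and 2629 in EtOH. One Dex array at 6 h lay within the EtOH range, and at 24 h the groups did not overlap. The increase was 0.36 ± 0.09 SE at 6 h (adjusted p = 0.00802) and 0.34 ± 0.08 SE at 24 h (adjusted p = 0.00288). It rests on 1 of the 7 Npc1 probes: the other 6 ranged over -0.09 to -0.02 at 6 h and -0.06 to 0.17 at 24 h and did not pass, and the mean over the probes gave 0.00 and 0.08 (adjusted p = 0.965 and 0.165). With arrays of one time only the 6 h call was lost too (adjusted p = 0.0737).

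Mcoln1 encodes mucolipin TRPML1, the calcium channel of the lysosomal membrane. Its 24 h intensities were 279.5, 288.1, 266.9, 288.9 and 282.1 in Dex, against 332.9, 334.4, 357.9, 341.1 and 319.2 in EtOH. At 6 h they were 339.7, 318.2, 354.8 and 351.4 in Dex and 358.1, 319.3, 430.9 and 397 in EtOH. The 24 h groups were apart, with a difference of -0.26 ± 0.06 SE (adjusted p = 0.00608), while the 6 h groups overlapped (-0.13, adjusted p = 0.282). Lamp1, an abundant glycoprotein of the lysosomal membrane, read 15135, 13262, 15348 and 14971 in Dex and 13438, 13041, 13595 and 12186 in EtOH at 6 h. A single Dex array fell into the EtOH range. The difference of 0.17 did not pass (adjusted p = 0.105), and it passed without that array, Dex replicate 2 (0.21, adjusted p = 0.0416). Lamp1 was at 0.08 at 24 h (adjusted p = 0.383). Scarb2, which carries glucocerebrosidase to the lysosome, was at 0.06 and -0.12, and Lamp2, needed for fusion with the autophagosome, was at -0.01 and -0.08 by its brightest probe. Neither passed.

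Of the 5 genes of the ATG8 family, Gabarapl1 and Map1lc3a were higher at 24 h, the other 3 did not pass, and none passed at 6 h. Gabarapl1 read 1374, 1651, 1584, 1613 and 1556 in Dex, against 1406, 1266, 1175, 1269.8 and 1215 in EtOH at 24 h. At 6 h it read 1462, 1449, 1535 and 1510.5 in Dex and 1430.1, 1410.4, 1297 and 1239 in EtOH. The lowest 24 h Dex array lay under the highest EtOH array, and the other 4 lay above all EtOH arrays. The increase of 0.30 ± 0.06 SE passed at 24 h (adjusted p = 0.00123). At 6 h the groups did not overlap, but the difference of 0.15 ± 0.07 SE did not pass (adjusted p = 0.184).

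Map1lc3a, the gene of the LC3 isoform LC3A, read 3096, 3175, 3031, 3693 and 3145 in Dex, against 2791, 2759, 2828, 2304 and 2872 in EtOH at 24 h. At 6 h it read 4230.2, 4223, 3712 and 3963 in Dex and 4372, 3756, 4778 and 4100.4 in EtOH. The 24 h groups were apart, with the highest Dex array and the lowest EtOH array both numbered 4. Map1lc3a passed at 24 h (0.25 ± 0.07 SE, adjusted p = 0.0178) and not at 6 h (-0.07, adjusted p = 0.662). Its 24 h call was lost under 5 of 20 alternatives, among them leaving out Dex replicate 4 (0.20, adjusted p = 0.0627), leaving out EtOH replicate 4 (0.20, adjusted p = 0.0630), the covariates (adjusted p = 0.0633) and the mean of its probes (0.12, adjusted p = 0.308), since the dimmer probe was at -0.01.

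Map1lc3b, the gene of the widely used autophagosome marker LC3B, did not pass. At 24 h it read 764.2, 822.5, 737.1, 792.9 and 895.3 in Dex, against 972.2, 954.9, 975.8, 906.9 and 872.1 in EtOH. All Dex arrays but the highest were under the EtOH range. The difference was -0.22 ± 0.08 SE (adjusted p = 0.0574), and it passed without Dex replicate 5 (-0.26, adjusted p = 0.0366). At 6 h Map1lc3b was at -0.10 (adjusted p = 0.576). Gabarap showed the widest spread, at 5064 to 9180.5 in Dex and 6363 to 9824 in EtOH at 6 h (-0.26, adjusted p = 0.274, and -0.40 with adjusted p = 0.0412 without Dex replicate 4). Its 24 h difference was -0.10 (adjusted p = 0.647). Gabarapl2 was at -0.14 and 0.09, with 24 h intensities of 79.7 to 110.8 in Dex and 78.4 to 97.4 in EtOH, near the array median, and it did not pass.

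The initiating kinases did not pass at either time. Ulk1 read 483.1 to 537.7 in Dex and 411.9 to 569.3 in EtOH at 6 h, and 471.2 to 606.1 in Dex and 459.6 to 578.8 in EtOH at 24 h, with a difference of 0.07 at both times (adjusted p = 0.729 and 0.611). Ulk2 was at -0.02 and -0.19 (adjusted p = 0.0785 at 24 h). Pik3c3 encodes the catalytic subunit Vps34, and it read 579.2, 639.4, 629.2, 625.5 and 590.3 in Dex, against 571.5, 545.5, 531.7, 596.2 and 510.8 in EtOH at 24 h. Only the top of the EtOH range reached into the Dex range. Pik3c3 passed narrowly at 24 h (0.15 ± 0.05 SE, adjusted p = 0.0452) and not at 6 h (0.07, adjusted p = 0.545), and it kept its 24 h call under 9 of 20 alternatives. Its call was lost with quantile normalization, with normexp, with the covariates and without any one of EtOH replicates 1, 2, 3 and 5 and Dex replicates 2, 3 and 4, among others (adjusted p up to 0.172 over all alternatives). Becn1, the Beclin subunit of that complex, was at 0.16 and -0.18, and Wipi1, which binds the lipid that Vps34 makes, at -0.05 at both times. Both failed the test.

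Of the 6 conjugation genes, Atg3 and Atg5 were lower at 24 h and the other 4 did not pass. Atg3, the enzyme that attaches ATG8 proteins to lipid, read 439.4, 418.3, 425.1, 422 and 406.1 in Dex, against 491.1, 515.5, 533.9, 578.1 and 470.5 in EtOH. The groups did not overlap, at -0.29 ± 0.08 SE (adjusted p = 0.0178). The call was lost with the covariates and without EtOH replicate 4 (-0.25, adjusted p = 0.0561). At 6 h Atg3 read 879.5, 900.9, 1054 and 1061 in Dex and 1118, 907.9, 1367 and 1212 in EtOH (-0.23, adjusted p = 0.132), with EtOH replicate 2 inside the Dex range. Atg5, which forms the ligase complex with Atg12 and Atg16l1, read 1063, 1161, 1202, 1133 and 1106 in Dex, against 1366, 1280.4, 1178, 1321 and 1279.7 in EtOH at 24 h. One EtOH array fell into the Dex range (-0.18 ± 0.05 SE, adjusted p = 0.0126). The Atg5 call was lost under 4 of 20 alternatives, among them the mean of its probes (-0.07, adjusted p = 0.258), the second probe being at 0.04, the covariates (adjusted p = 0.0849), and leaving out both 24 h arrays numbered 1 (-0.14, adjusted p = 0.107). The 6 h Atg5 intensities were close together, at 1993 to 2048 in Dex and 2007 to 2079 in EtOH (-0.01, adjusted p = 0.934). Atg12 was at 0.15 at both times, and Atg4b, Atg7 and Atg16l1 ranged over -0.14 to 0.13 at 6 h and 0.02 to 0.05 at 24 h.

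Of the 3 cargo receptors, Bnip3l was lower at 24 h and the other 2 did not pass. Bnip3l, a mitophagy receptor also called Nix, read 1989, 2123, 2016, 2151 and 2029 in Dex, against 2429, 2367, 2419, 2386 and 2302 in EtOH at 24 h. All Dex arrays were below all EtOH arrays. The difference of -0.21 ± 0.07 SE passed (adjusted p = 0.0337), and was lost under 9 of 20 alternatives, among them the covariates and leaving out both 24 h arrays numbered 1 or any one of EtOH replicates 1 to 4 and Dex replicates 1, 3 and 5 (adjusted p up to 0.119). At 6 h Bnip3l was at -0.08 (adjusted p = 0.590). Its relative Bnip3 read 76.5, 77.7, 76.1, 90.3 and 84.3 in Dex, against 72.4, 72.2, 70.8, 65.6 and 70.5 in EtOH at 24 h. These groups were apart too, in the other direction, but the values lay near or below the array median, and the difference of 0.20 ± 0.07 SE did not pass (adjusted p = 0.0536). Sqstm1, the gene of the ubiquitin-binding receptor p62, read 4315, 4356, 4233, 4281 and 4015 in Dex, against 3739, 3831, 4059, 4528 and 3408 in EtOH at 24 h, with overlap. It was at -0.21 at 6 h and 0.12 at 24 h (adjusted p = 0.294 and 0.463).

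Tfeb, the transcription factor of lysosomal genes, averaged 113.9 ± 7.24 in Dex and 124.3 ± 13.7 in EtOH at 6 h (SD, n = 4 each). At 24 h it averaged 93.88 ± 3.09 in Dex and 91.92 ± 2.90 in EtOH (SD, n = 5 each). These values are near the array median, where background left in the intensity understates a fold change, and the differences of -0.12 and 0.03 did not pass (adjusted p = 0.307 and 0.785).

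**Figure D2:**
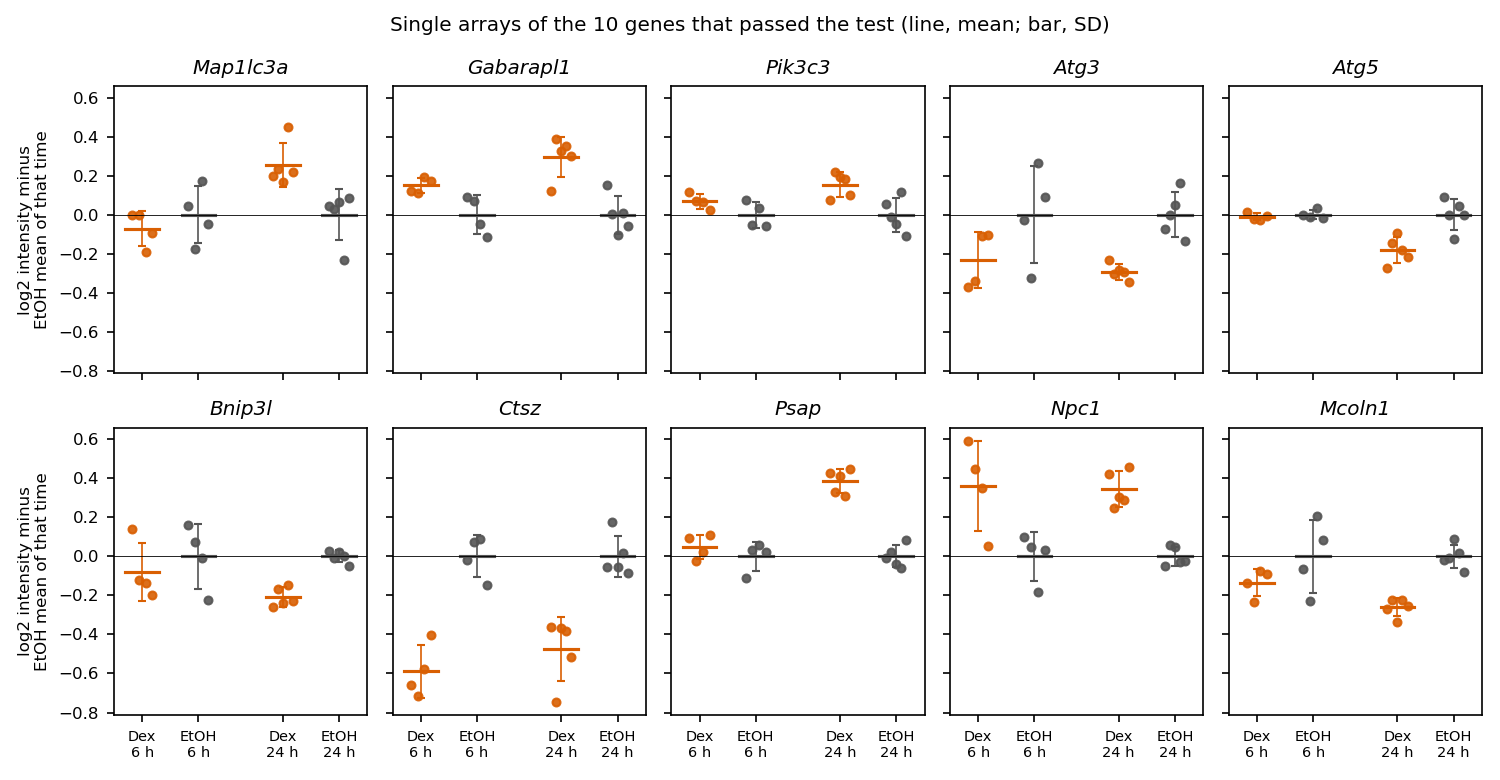
Intensity of the 10 genes that passed in a Dex comparison, on each array, as log2 intensity minus the EtOH mean of the same time (y axis). Points are arrays, lines are means and bars are SD; the 5 Dex arrays at 24 h of Ctsz, Psap, Npc1, Atg3, Mcoln1, Bnip3l and Map1lc3a are clear of the 5 EtOH arrays, while those of Gabarapl1, Pik3c3 and Atg5 overlap them.

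The autophagosome and lysosomal genes were also counted apart. Of 19 autophagosome genes, 0 passed at 6 h by limma (2 at an unadjusted p under 0.05, median log2 fold change -0.05). Without EtOH replicate 2 or without Dex replicate 4, 1 passed, where fits without 1 array of 6 h gave 1238 to 1827 of all genes. At 24 h, 3 of the 19 were higher and 3 lower (31.6%), with a median of 0.03. Of 14 lysosomal genes, 1 was higher and 1 lower at 6 h (14.3%), with a median of 0.00, and 2 were higher and 2 lower at 24 h (28.6%), with a median of -0.08. Over all genes the shares were 9.06% at 6 h and 16.5% at 24 h, and among those brighter than the median 15.4% and 25.5%. With the residual directions as covariates, 8.89% of all genes passed at 24 h. So did 1 of the 19 autophagosome genes (Gabarapl1) and 4 of the 14 lysosomal genes (Psap, Npc1, Ctsz and Mcoln1). The 8.89% covers bright and dim genes alike, and no share of the brighter genes was taken for this fit. Npc1 rests on 1 of its 7 probes. The difference between these lists was not tested.

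Probes of the same gene did not always move alike. Of the 34 genes, 18 had several probes, and the set had 69 probes in all. When every probe was tested on its own, 6 of the 69 passed at 6 h (1 higher and 5 lower), against 7% of all probes. At 24 h 16 passed (7 higher and 9 lower), against 13.7%. Beyond the genes above, the second probe of Becn1 was lower at 24 h (-0.39, adjusted p = 0.00136), as was that of Scarb2 (-0.25, adjusted p = 0.0223). The same Scarb2 probe was lower at 6 h (-0.27, adjusted p = 0.0371), as was a dimmer probe of Lamp2 (-0.28, adjusted p = 0.0446).

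Lamp2 was the 1 member with probes that passed in both directions at 24 h, and is described here after its values were seen. Its second brightest probe, annotated to the same transcript as the brightest, read 5435, 4099, 4952, 4504 and 4801 in Dex, against 5095, 5907, 5636, 5617 and 5781 in EtOH. A dimmer probe, annotated to another transcript, read 1771, 1875, 1805, 2061 and 2077 in Dex, against 1528, 1506, 1426, 1292 and 1343 in EtOH. All Dex arrays but 1 were below the EtOH range on the one probe, and all were above it on the other. The first of these passed at -0.24 (adjusted p = 0.0153) and the other at 0.43 (adjusted p = 8.97e-05). The other 2 probes annotated to the transcript of the dimmer one were at 0.13 and -0.03 at 24 h and did not pass then, so its probes did not move together.

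**Figure D3:**
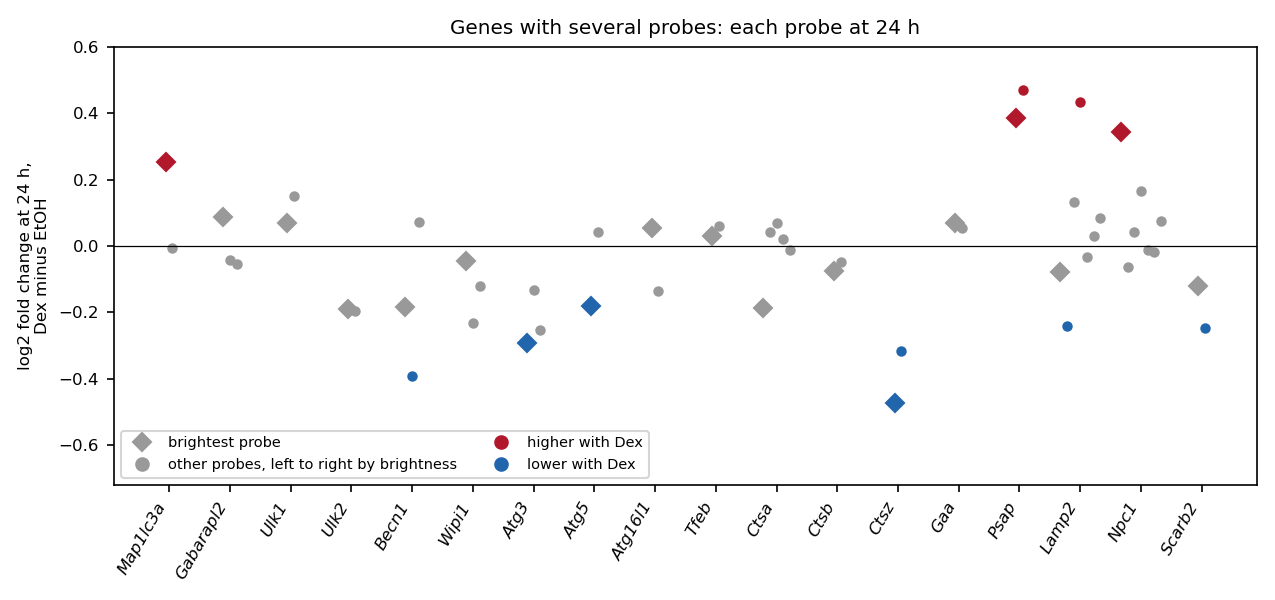
Log2 fold change at 24 h (Dex minus EtOH, y axis) of each probe of the 18 genes with several probes, with the brightest probe as a diamond and the others as circles. Coloured probes passed when every probe was tested; Psap and Ctsz have 2 passing probes each in the same direction, Npc1 has 1 of 7, and Lamp2 has 1 in each direction.

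Other genes of the pathway gave a wider view. Of 112 listed, 104 were measured. At 6 h, 5 of these were higher and 2 lower (6.73%, against 9.06% of all genes), and at 24 h 13 were higher and 3 lower (15.4%, against 16.5%), with medians of 0.02 and 0.03. Without EtOH replicate 2 the 6 h count was 4, where fits without 1 array of 6 h gave 1238 to 1827 of all genes. With the covariates the counts were 1 and 6, where 4.46% and 8.89% of all genes passed. The shares of 6.73% and 15.4% were close to or below those of all genes. Of the 88 pathway genes brighter than the median gene, 7.95% passed at 6 h and 17% at 24 h. Over all genes above that median, 15.4% and 25.5% did.

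Of these 104 genes, the one with the greatest 6 h change was Sgsh, a sulfatase that degrades heparan sulfate. It read 480.7, 419, 423.6 and 365.4 in Dex, against 239.3, 238.2, 215.9 and 229.5 in EtOH at 6 h. At 24 h it read 210.1, 172.2, 167.8, 155.8 and 162.1 in Dex and 124.3, 135, 163.2, 151.5 and 161.1 in EtOH. The groups were far apart at 6 h and overlapped at 24 h. Sgsh was 1.82-fold higher at 6 h (log2 0.87 ± 0.09 SE, adjusted p = 7.09e-07) and at 0.24 at 24 h (adjusted p = 0.0550, and 0.0373 to 0.0420 without EtOH replicate 3, EtOH replicate 5 or Dex replicate 4). The Dex effect was smaller at 24 h by 0.63 on the log2 scale, a difference of -0.63 ± 0.13 SE that passed (adjusted p = 0.00574). Sgsh has 3 probes, and the values above are those of the brightest. The mean of the 3 gave a far smaller 6 h rise, which passed (0.20, adjusted p = 0.00428), so the probes did not rise alike. With that mean the difference between the times was lost (-0.09, adjusted p = 0.420).

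Lgmn and Ppt1, also hydrolases, moved at 24 h. Lgmn, the asparaginyl endopeptidase legumain, read 3568, 3699, 3375, 3444 and 3577 in Dex, against 2841, 2792, 3038, 2845 and 2998 in EtOH. Ppt1, a thioesterase that removes palmitate from proteins, read 492.9, 547.1, 568.4, 508.2 and 517.3 in Dex, against 702.9, 641.5, 583.3, 658.9 and 693.8 in EtOH. Both genes had groups apart, Lgmn higher (0.28 ± 0.05 SE, adjusted p = 0.000473) and Ppt1 lower (-0.32 ± 0.07 SE, adjusted p = 0.00167). In all, 3 of 31 other hydrolases were higher and 3 lower at 24 h (19.4%, against 16.5% of all genes), and 2 were higher and 1 lower at 6 h (9.68%, against 9.06%).

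Among 21 other lysosomal membrane proteins, 6 were higher and none lower at 24 h (28.6%), against 16.5% of all genes and 25.5% of those brighter than the median, or 8.39% higher and 8.1% lower over all genes. Of the 21 estimates at 24 h, 13 were above 0 and 8 below. The groups did not overlap for 6 higher and 2 lower genes, against 16.3% of all genes and 2280 of the 9528 brighter than the median. At 6 h 0 passed by limma (3 at an unadjusted p under 0.05). Igf2r, the mannose-6-phosphate receptor that sorts hydrolases to the lysosome, averaged 377.1 ± 17.9 in Dex and 302.2 ± 16.7 in EtOH at 24 h (SD, n = 5 each), a rise of 0.32 (adjusted p = 0.00319). At 6 h it was at 0.18 and passed without EtOH replicate 1 (0.26, adjusted p = 0.0336). Slc17a5, the sialic acid exporter sialin, averaged 194.5 ± 11.3 in Dex and 160.6 ± 12.3 in EtOH (0.28, adjusted p = 0.00373). Laptm4a, a small lysosomal transmembrane protein, averaged 7509 ± 241 in Dex and 6540.04 ± 240.1 in EtOH (0.20, adjusted p = 0.00828). At 24 h these 3 genes had no overlap between the groups. The mean of the probes gave 0.20 for Igf2r and 0.17 for Slc17a5, which still passed, and the Laptm4a call was lost with the covariates (adjusted p = 0.0612).

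The other autophagy machinery gave 2 higher of 28 at 6 h (7.14%, against 9.06% of all genes) and 3 higher at 24 h (10.7%, against 16.5%), with none lower. At 6 h Atg2b, a lipid transfer protein of the growing membrane, rose by 0.28 (adjusted p = 0.00812), and Uvrag, a subunit of the Vps34 complex, rose by 0.28 (adjusted p = 0.00938) and by 0.21 at 24 h (adjusted p = 0.0181, and 0.0501 and 0.0511 without EtOH replicate 4 and without Dex replicate 5). Both 6 h calls were lost with the mean of the probes, at 0.10 for Atg2b (adjusted p = 0.134) and 0.09 for Uvrag (adjusted p = 0.145), and with the covariates (adjusted p = 0.0515 and 0.0560), as was the 24 h call of Uvrag (adjusted p = 0.0785). Calcoco1, a receptor for fragments of the endoplasmic reticulum, rose by 0.33 at 24 h (adjusted p = 0.00541), which was lost with the mean of its probes (0.13, adjusted p = 0.193). Of 14 subunits of the vacuolar ATPase, the proton pump that acidifies lysosomes, Atp6v0e was lower at 6 h (-0.23, adjusted p = 0.0400, lost under 10 of 17 alternatives at up to 0.163, among them leaving out EtOH replicate 2 or 4 or Dex replicate 1, 2 or 3) and 0 passed at 24 h by limma (3 at an unadjusted p under 0.05). Of 10 regulators of the TFEB and FoxO pathways, Foxo3 was higher at both times. It averaged 157.4 ± 16.5 in Dex and 130.8 ± 9.57 in EtOH at 6 h (SD, n = 4 each), and 125.4 ± 8.54 in Dex and 100.2 ± 4.82 in EtOH at 24 h (SD, n = 5 each). The rises were 0.26 (adjusted p = 0.0267) and 0.32 (adjusted p = 0.00146), and the first was lost under 7 of 17 alternatives, among them the mean of its probes (0.13, adjusted p = 0.0731), arrays of one time only (adjusted p = 0.112), the covariates (adjusted p = 0.103) and leaving out EtOH replicate 1 or 2 or Dex replicate 3 or 4 (adjusted p up to 0.0882).

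**Figure D4:**
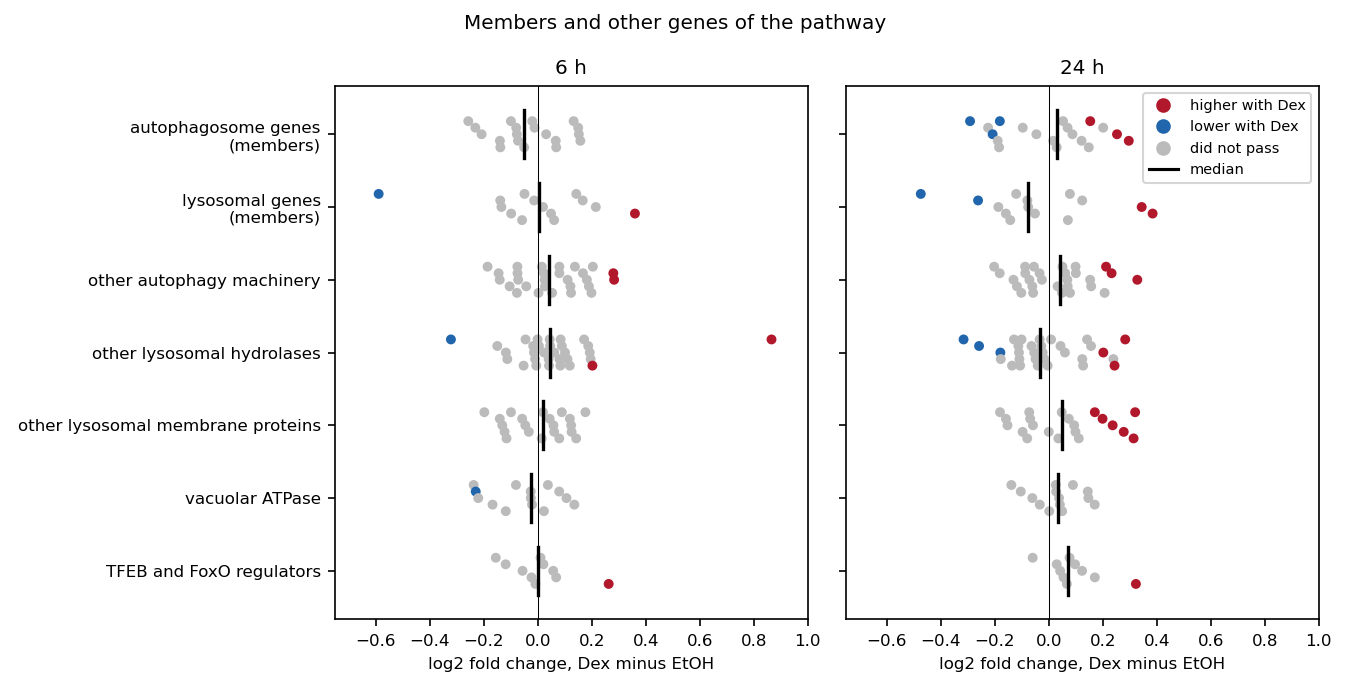
Log2 fold change (Dex minus EtOH, x axis) of the 19 autophagosome and 14 lysosomal members and of the 104 other measured genes of the pathway, by list, at 6 h on the left and 24 h on the right. Points are genes, coloured where they passed, and bars are list medians. In the list of other lysosomal membrane proteins, the 6 that passed at 24 h are all on the higher side. Among the lysosomal members, the membrane protein Npc1 passed at 24 h as higher and Mcoln1 as lower. Sgsh at 0.87 is the outermost point at 6 h.

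Promoters of members were searched for the E-box CACGTG, for its extended form TCACGTGA, which is the core of the CLEAR element that TFEB is known to bind, and for the full palindrome of the glucocorticoid response element, in the 250 bases before each RefSeq start (build GRCm38.p6). All 3 motifs read the same on both strands, and every TCACGTGA contains a CACGTG. Of the 26 members in the promoter table, 10 held CACGTG (38.5%, against 6.86% of 27025 genes) and 4 held TCACGTGA (15.4%, against 0.907%). None held the glucocorticoid palindrome, which 0.0111% of genes hold. TFEB is known to activate genes of autophagy and the lysosome, and the set was drawn from such genes. The E-box shares were thus not independent of that choice, and they were not tested. The 4 members with TCACGTGA, Atg3, Mcoln1, Ctsd and Ctsa, are shown by the stretch just before the start, 5′ to 3′, with the motifs in capitals.
Atg3, chr16:45158709-45158828, + strand: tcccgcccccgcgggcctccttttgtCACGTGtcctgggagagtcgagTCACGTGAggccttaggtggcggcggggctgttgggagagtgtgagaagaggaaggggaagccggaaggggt
Mcoln1, chr8:3500399-3500518, + strand: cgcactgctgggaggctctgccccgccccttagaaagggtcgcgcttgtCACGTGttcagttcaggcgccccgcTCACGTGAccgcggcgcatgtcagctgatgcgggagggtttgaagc
Ctsd, chr7:142387828-142387947, - strand: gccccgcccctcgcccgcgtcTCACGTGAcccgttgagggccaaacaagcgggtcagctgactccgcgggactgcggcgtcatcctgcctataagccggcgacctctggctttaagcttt
Ctsa, chr2:164833743-164833772, + strand: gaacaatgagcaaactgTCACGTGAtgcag
The Atg3 and Mcoln1 windows each hold a CACGTG and a TCACGTGA, which begins 72 bases before the start in Atg3 and 46 in Mcoln1. Ctsa is shown for its second listed start, 30 bases only.

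All 4 of these genes had 24 h estimates below 0, as had 17 of the 34 members in all. Members with CACGTG alone went both ways. Atg5 (-0.18) and Ctsl (-0.14) were below 0, and Atg7 (0.03), Bnip3 (0.20), Gaa (0.07) and Lamp1 (0.08) above. Atg3 and Mcoln1 passed at -0.29 and -0.26, while Ctsa (-0.19, adjusted p = 0.201) and Ctsd (-0.16, adjusted p = 0.158) did not. Ctsa has 5 probes, and the dimmer ones were at -0.01 to 0.07 and did not pass either. Ctsd, the aspartic protease cathepsin D, read 161, 127.2, 154.9, 150.8 and 144.1 in Dex and 153.9, 180.3, 163.6, 175.7 and 149.8 in EtOH at 24 h, with overlap. Over all tested genes with TCACGTGA in this window (199), 13.6% were higher and 9.05% lower at 24 h with a median of -0.01, against 8.47% and 8.03% with a median of 0.00 among the 15038 without it. The low estimates of these 4 members were thus not seen over all genes that hold the motif.

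The members with the greatest changes in the promoter table are given for comparison, Psap and Gabarapl1 as higher and Ctsz as lower with Dex. Their 120 bases before the start contain none of the 3 motifs, so no letters are in capitals.
Psap, chr10:60277508-60277627, + strand: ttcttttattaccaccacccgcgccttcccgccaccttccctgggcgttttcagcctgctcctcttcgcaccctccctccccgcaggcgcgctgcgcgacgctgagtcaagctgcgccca
Ctsz, chr2:174439040-174439159, - strand: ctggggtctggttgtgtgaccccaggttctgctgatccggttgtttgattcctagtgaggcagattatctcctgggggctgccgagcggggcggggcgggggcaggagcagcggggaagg
Gabarapl1, chr6:129533072-129533191, + strand: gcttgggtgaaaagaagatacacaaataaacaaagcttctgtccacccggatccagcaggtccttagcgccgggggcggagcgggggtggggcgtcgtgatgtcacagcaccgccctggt
A match or its absence in these windows is a description of the letters and says nothing of binding in these cells.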

How the data were processed

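RNA of C2C12 myotubes in 4 groups (Dex and ethanol at 6 h, 4 arrays each, and at 24 h, 5 arrays each) was hybridised to Illumina mouseWG-6 arrays, 1 colour. Groups follow the sample titles, and every titled array was used, although the design text mentions triplicates. Probe intensities on a linear scale, as the authors deposited them, had been made with lumi per the submitters' processing notes, with version, background correction and normalization not given in the sources used here. Without detection p-values, which were not used here, probes above and below background could not be separated, and the number of arrays limits the precision.

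Of 45281 probes, the platform annotation gave 1 symbol to 34885, several to 18 and none to 10378. Symbols were updated by gene identifier to RefSeq GRCm38.p6 for 34807 probes and kept for 78. A gene was read from its brightest probe by mean log2 over the 18 arrays (19057 genes), and log2 was taken with a pseudocount of 0. One limma 3.58.1 model (R 4.3.3, lmFit and eBayes, residual degrees of freedom 14) with a mean per group gave Dex minus EtOH at 6 h and at 24 h and the difference of these effects. P-values were adjusted by Benjamini-Hochberg over all genes, and a gene passed under 0.05. The fit was run on simulated data with independent noise in each array. Such data lack the nearly empty directions and opposed deviations of the real arrays, so they cannot show how the fit behaves under these. Of 112 pathway genes, the 8 without a probe were not analysed here.

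Members, gene lists and motifs were chosen with earlier results of these data known. Named in the text are every member that passed in any of the 3 comparisons, the ATG8 family, Ulk1, Bnip3, Sqstm1, Tfeb, Ctsl and Lamp1, up to 3 passing genes per pathway list by smallest p, and Fkbp5, Tsc22d3 and Per1; other members are given briefly. Lamp2 probes and Lipa were picked after their values were seen.

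Alternatives were the mean of a gene's probes, every probe tested, quantile normalization within a time, normexp with an offset of 50, genes above the median only, arrays of one time only, array weights, the replicate number as a block, nearly empty residual directions as covariates, each array left out, and both 24 h arrays numbered 1 left out.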

Additional observations from a re-analysis of the deposited data

Results flagged for a closer look

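A Dixon test marked 4 single arrays among 136 groups of named genes, where chance marks about 1 in 20. For Map1lc3a at 24 h, Dex replicate 4 was high at 3693 beside 3031 to 3175 in the other Dex arrays (gap over range 0.765), and EtOH replicate 4 was low at 2304 beside 2759 to 2872 (0.819). For Bnip3 at 24 h, EtOH replicate 4 was low at 65.6 beside 70.5 to 72.4 (0.730). For Lamp1 at 6 h, Dex replicate 2 was low at 13262 beside 14971 to 15348 (0.830).

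The Dex effect differed between 24 h and 6 h by the interaction test for these of the named genes, given as log2 effect at 24 h minus that at 6 h. Psap was at 0.34 (adjusted p = 0.0119). Of the 104 other genes of the pathway, 8 passed (5 higher and 3 lower, 7.69%, against 4.94% of all genes), not all of them named. Of those named, Lipa was at 0.57 (adjusted p = 0.00497), Calcoco1 at 0.40 (adjusted p = 0.0497) and Atp6v0e at 0.32 (adjusted p = 0.0485). Lgmn was at 0.29 (adjusted p = 0.0341), Ppt1 at -0.34 (adjusted p = 0.0478) and Sgsh at -0.63 (adjusted p = 0.00574). Fkbp5, induced at both times, was at -0.53 (adjusted p = 0.00334). Lipa passed under all 27 alternatives run and Sgsh under 26 of 27. Calcoco1, Ppt1, Atp6v0e and Lgmn passed under 6, 7, 9 and 13 of 27.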

How the results depend on the processing

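Direction never reversed in a result that passed in either fit, and of 2173 repeats of named-gene results 1999 stayed on the same side of the threshold, 152 lost it and 22 gained it (32 changed sign while passing in neither). Gabarapl1, Psap and Mcoln1 at 24 h and Ctsz at both times passed under every alternative run. Gabarapl1 and Mcoln1 have 1 probe each, so the mean of the probes could not change their estimates. At 6 h all genes gave 908 calls with arrays of one time only, 1079 with array weights and 850 with the covariates; arrays of one time gave 1 member, 1 lysosomal gene and 3 pathway genes, and the covariates 1 pathway gene. At 24 h all genes gave 4772 calls with every probe tested, 5552 with array weights and 1694 with the covariates. Array weights gave 16 members, 10 autophagosome genes and 31 pathway genes at 24 h, and the covariates 5, 1 and 6. For the difference between times the covariates gave 232 genes and 0 members. Quantile normalization, genes above the median only and array weights gave 2 members each. The counts of all genes for these last settings are not given here, so no share stands beside them. The samples share only a number: same-numbered Dex and EtOH arrays correlated at -0.0797 to 0.256 at 6 h and at -0.928 to -0.190 at 24 h. With the replicate block, 3 autophagosome genes passed at 24 h (calls lost for Map1lc3a, Pik3c3 and Atg5 at adjusted p of 0.0544, 0.129 and 0.0814), the 24 h calls of Uvrag (0.0644) and Laptm4a (0.0510) and the 6 h call of Atp6v0e (0.0657) were lost, and 532 genes and 0 members passed for the difference between times. The cause of these changes was not tested. By their settings, every probe tests more features, single times use fewer arrays, and the covariates leave 10 residual degrees of freedom in place of 14. Leaving out 1 array gave 1238 to 1827 genes at 6 h, 2370 to 2756 at 24 h and 633 to 1033 for the difference; 2 to 4, 8 to 10 and 1 to 4 members; 0 to 1 and 4 to 6 autophagosome genes, 2 to 3 and 4 to 4 lysosomal genes, and 4 to 10 and 11 to 18 pathway genes at 6 h and 24 h. Dim members (Tfeb, Bnip3, Gabarapl2) are limited by unknown background.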

Other observations

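Lipa, the lysosomal acid lipase that frees fatty acids and cholesterol from lipids taken into the lysosome, was picked after its values were seen, as a gene of the pathway that was lower at 6 h and higher at 24 h. It read 526.7, 600.8, 594.8 and 709.3 in Dex, against 746.8, 711.9, 847.6 and 722.2 in EtOH at 6 h. At 24 h it read 373.2, 310.7, 368, 386.1 and 325.8 in Dex, against 287, 313.5, 294.7, 278.5 and 312.2 in EtOH. The Dex arrays were all low at 6 h, and 4 of 5 were above the EtOH range at 24 h. The differences were -0.32 (limma, adjusted p = 0.0157) and 0.24 (adjusted p = 0.0267). The 6 h call was lost under 4 of 17 alternatives and the 24 h call under 10 of 20, among them leaving out EtOH replicate 3 or Dex replicate 1 of 6 h, and EtOH replicates 1, 3 or 4 or Dex replicates 1, 3 or 4 of 24 h (adjusted p 0.0504 to 0.0793 for these single arrays). With the mean of its probes the 24 h value was 0.14 (adjusted p = 0.218). The second probe of Ulk1 had estimates of opposite sign at the times, at -0.26 at 6 h (adjusted p = 0.0237) and 0.15 at 24 h (adjusted p = 0.115), with a difference between the times of 0.41 (adjusted p = 0.0150) that its brightest probe did not show (0.00).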
